A study of Saccharomyces cerevisiae with 16 samples.

Results

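The genes described here encode the DNA replication machinery of Saccharomyces cerevisiae and the cohesin ring that is loaded onto DNA in S phase. They were 42 genes taken from a fixed list of symbols, chosen by function and not by any measured value, and all 42 were found among the 6321 features of the array, each with 1 probe. Cultures were given benomyl, an antimitotic compound that breaks down microtubules, and their transcripts were measured on spotted arrays read in 2 channels. WT cells were followed for 30 s and for 2, 4, 10, 20 and 40 min, which gave 6 arrays. Strains carrying a deletion of YAP1 (DeltaYAP1) or of PDR1 (DeltaPDR1) were followed for 30 s and for 2, 4, 10 and 20 min, which gave 5 arrays each. YAP1 encodes a transcription factor of the oxidative stress and drug response, and PDR1 encodes an activator of drug efflux pumps. On each array total RNA from drug-treated cells was in channel 1 and total RNA from untreated cells of that strain was in channel 2, so every group carried benomyl in one channel and each deletion strain was compared with itself. Strain background, dose and medium are not given in the labels, and whether more than 1 deletion clone was used is not given either. Each strain and time had a single array, so an array has no replicate of its own and times of a strain served as repeats in the tests.

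Replication starts where the origin recognition complex and Cdc6 load the MCM helicase onto DNA in G1. Cdc45 then helps to activate the helicase, polymerase alpha-primase lays down primers, polymerases epsilon and delta extend them, and the sliding clamp PCNA with its loader, the single-strand binding protein RPA and the enzymes that join Okazaki fragments complete the fork. Many of these genes are transcribed in a burst at the boundary of G1 and S under the factors MBF and SBF, and some MCM genes peak earlier, between M and G1.

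Each value is a log2 ratio of cells with benomyl to cells without it, with channel 1 read as the numerator and relative to the average of each array. The base of the logarithm is not stated and was taken as 2, so folds would be larger with natural logarithms, and every sign would turn if the channels were in the opposite order. A bias of one dye for one gene that is constant over the arrays cannot be told apart from a response. The spread of all log2 ratios on an array (SD) lay between 0.174 and 0.594, with the highest values in WT at 20 and 40 min. The deleted genes give no check of the labels here, because both channels came from the same strain: the log2 ratio of YAP1 lay between -0.056 and 0.29 in the YAP1 deletion, and PDR1 had a value on 1 of the 5 arrays of the PDR1 deletion. On some arrays neighbouring probe numbers had like values, with a Spearman correlation of a probe with the next of 0.391 in WT at 4 min, 0.408 in the YAP1 deletion at 4 min and 0.506 in the YAP1 deletion at 30 s, against 0.073 in WT at 10 min; this is a property of the arrays, and its part in the results was tested only by the alternatives in the closing section.

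Of the 42 genes, 18 had a value on all 16 arrays, 19 on 13 to 15 arrays, and 5 on fewer than 12. The 5 genes are MCM4, ORC1, ORC4, DPB2 and POL31, and they were not tested in the models of 12 arrays; ORC1 entered the slope over the WT arrays. The PDR1 deletion at 2 min lacked a value for 21 of the 42 genes. The other 37 genes entered the tests across 4324 features.

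**Figure D1:**
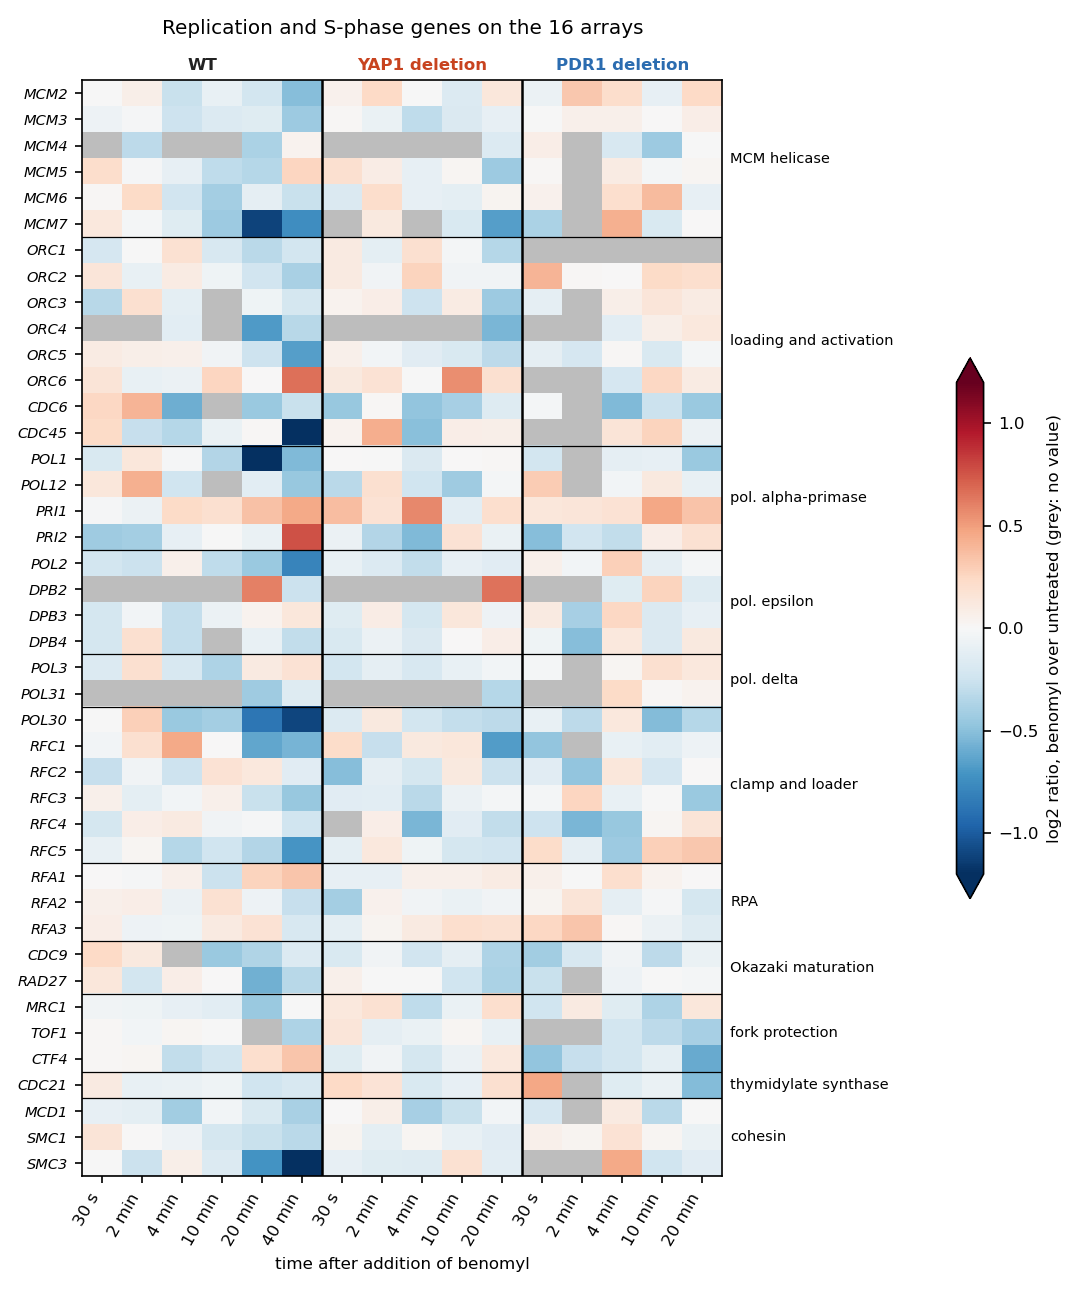
The 42 replication and S-phase genes (rows, ordered by role) on the 16 arrays (columns, by strain and time after addition of benomyl). Colour gives the log2 ratio of benomyl over untreated cells, with blue for lower and red for higher with the drug, grey for no value, and the colour scale ending at -1.2 and 1.2; the deepest blues lie in WT at 20 and 40 min, where POL1 reached -1.57 and CDC45 -1.52.

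In WT the median of the replication genes lay below that of all features from 4 min on, and most clearly at 20 and 40 min, while no member's slope over the 6 WT arrays was called. Their median log2 ratios from 30 s to 40 min were 0, -0.012, -0.097, -0.088, -0.23 and -0.27. The median of all features stayed between -0.046 and 0.008 on the same 6 arrays. In RNA of a whole culture, fewer cells in S phase and less of these transcripts per cell cannot be told apart. At 20 min 31 of 41 genes (75.6%) were below 0, against 54% of all features, and at 40 min 33 of 42 (78.6%), against 51.8%. The spread among the members was wide. At 20 min the log2 ratio ranged from -1.57 for POL1 to 0.60 for DPB2, and at 40 min from -1.52 for CDC45 to 0.77 for PRI2.

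At least 1.5-fold lower with the drug were 6 of 41 genes (14.6%) in WT at 20 min, against 6.78% of all features. These were MCM7, ORC4, POL1, POL30, RFC1 and SMC3. At 40 min the number was 7 of 42 (16.7%), against 11.8% of all features, and the genes were MCM7, ORC5, CDC45, POL2, POL30, RFC5 and SMC3. MCM7, POL30 and SMC3 were in both sets, which is 3 of the 41 genes with both values (7.32%), against 3.8% of all features. The 2-fold threshold was passed by POL1 and MCM7 at 20 min (1.73% of all features) and by CDC45, SMC3 and POL30 at 40 min (3.43% of all features). Of the 41 genes, 28 (68.3%) were below 0 at both times, against 40.1% of all features. Single arrays carry no test, and these shares describe the arrays.

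Fewer members were at least 1.5-fold lower at 20 min in the deletion strains than in WT. Below 0 at 20 min were 29 of 42 genes (69%) in the YAP1 deletion, against 46.5% of all features. In the PDR1 deletion 23 of 41 (56.1%) were below 0, against 51.2%. Of the 41 genes with both values, 25 (61%) were below 0 in both WT and the YAP1 deletion, against 35.3% of all features. At 20 min the median log2 ratio was -0.082 in the YAP1 deletion, against 0.019 for all features, and -0.023 in the PDR1 deletion, against -0.001. At least 1.5-fold lower at 20 min were MCM7 and RFC1 in the YAP1 deletion, 2 of 42 genes against 3.27% of all features, and CTF4 in the PDR1 deletion, 1 of 41 genes against 3.33%. In WT 28 of 41 genes (68.3%) had a lower log2 ratio at 20 min than in the YAP1 deletion, against 55.4% of all features, and 29 of 40 (72.5%) a lower one than in the PDR1 deletion, against 52.4%. All log2 ratios of an array spread more in WT at 20 min (SD 0.535) than in the YAP1 deletion (SD 0.302) or the PDR1 deletion (SD 0.412). The 4 min arrays gave another order. The median was -0.177 in the YAP1 deletion, against -0.024 for all features, -0.097 in WT, against -0.046, and 0.016 in the PDR1 deletion, against -0.019. Below 0 were 30 of 37 genes (81.1%) in the YAP1 deletion, against 53.5% of all features, and 27 of 38 (71.1%) in WT, against 56.9%. No member was 1.5-fold lower in the YAP1 deletion at 4 min.

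**Figure D2:**
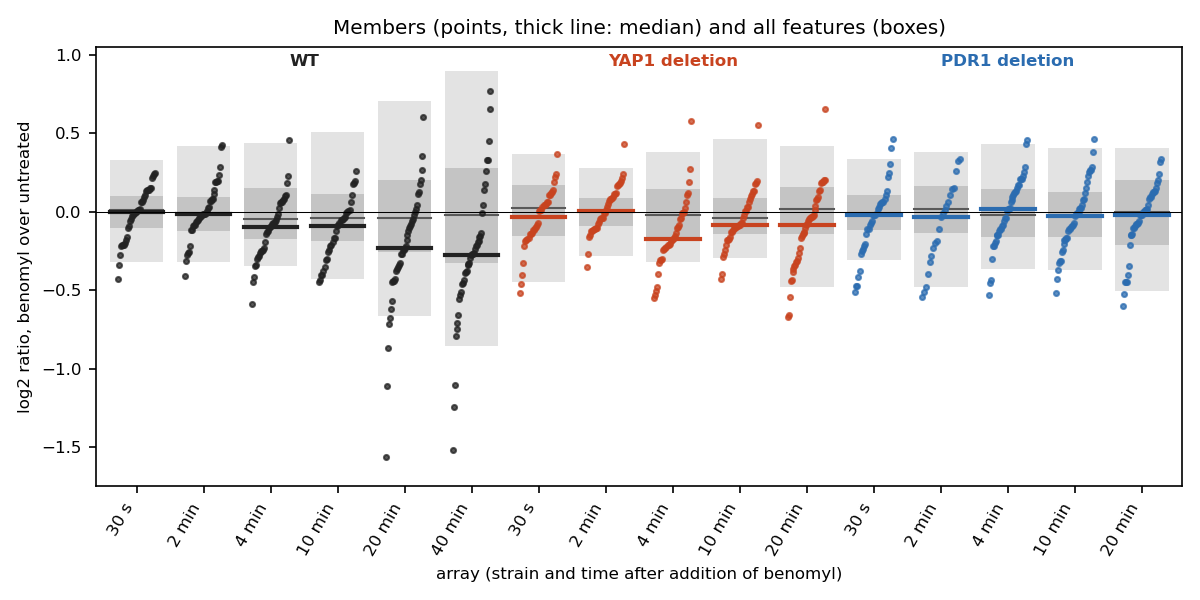
Log2 ratios of the members on each of the 16 arrays (points, with a thick line at their median, sorted from low to high within an array). The grey boxes span the 5th to 95th percentile (light) and the middle 50% (dark) of all features, with a thin line at their median; the members' median sits below that of all features in WT at 20 min (-0.23) and 40 min (-0.27).

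The 6 MCM proteins form the ring of the replicative helicase. MCM7 (YBR202W) showed the clearest response of the 42 genes over 2 to 20 min. Its log2 ratios in WT from 30 s to 40 min were 0.13, -0.023, -0.14, -0.44, -1.11 and -0.75. Without YAP1 they were 0.11, -0.18 and -0.66 for 2, 10 and 20 min, with the 30 s and 4 min values missing. Without PDR1 they were -0.38, 0.43, -0.18 and 0.009 for 30 s, 4, 10 and 20 min, with the 2 min value missing. WT and the YAP1 deletion were thus both lowest at 20 min, while the PDR1 deletion was near 0 there, and at 10 min all 3 strains were below 0. The mean WT response over 2, 4, 10 and 20 min was -0.43 ± 0.10 (moderated SE, 4 arrays), and MCM7 fell in the test over all features (limma, Benjamini-Hochberg adjusted p = 0.0413). The call was lost without any single WT or YAP1 deletion array of 2 to 20 min and without the PDR1 deletion array of 4 min, with log2 values of -0.50 to -0.31 and adjusted p of 0.0527 to 0.28. It was also lost with array medians subtracted (adjusted p = 0.0599) and in a fit of the WT arrays alone (adjusted p = 0.465).

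In this comparison 1 of 37 members tested, MCM7, was called down and 0 were called up, against 1.55% of all features down and 2.61% up. The share of members (1 of 37) is close to the background. At an unadjusted p under 0.05, 7 of 37 members were lower, against 11.6% of all features, and 0 were higher, against 8.16%. The other MCM genes were less low in WT. All 5 MCM genes tested had a WT response below 0, from -0.43 for MCM7 to -0.13 for MCM6 and MCM2, with a median of -0.145 against -0.0357 for all features. The same 5 genes were all above 0 in the PDR1 deletion, from 0.052 to 0.25 with a median of 0.169. At 10 and 20 min alone their median in that strain was 0.042, with 2 of 5 below 0. In the YAP1 deletion 3 of 5 were below 0 over 2 to 20 min. MCM4, measured on 8 arrays, had log2 ratios of -0.31, -0.38 and 0.043 in WT for 2, 20 and 40 min.

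The difference between the PDR1 deletion and WT was tested directly. It was largest for MCM7 at 0.63 ± 0.16 (95% interval 0.27 to 0.98), and it was 0.38 ± 0.15 for MCM6 and 0.30 ± 0.11 for MCM2. None passed the adjustment over all features (limma, adjusted p = 0.152, 0.293 and 0.257). The value of MCM7 rests on 3 PDR1 deletion arrays, and on 3 YAP1 deletion arrays in the model, since the others had no value. Where a time is missing, the time terms shared by the strains adjust the estimate, which is then not the plain mean of the measured values. This holds for MCM5, MCM6 and MCM7 in the PDR1 deletion, which had no value at 2 min.

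The origin recognition complex (ORC1 to ORC6) marks origins, CDC6 loads the helicase and CDC45 belongs to its active form. These genes did not move as a block. In WT the 6 tested had a median response of -0.054, from -0.23 for CDC6 to 0.042 for ORC3, and 4 of 6 were below 0. ORC5 had -0.66 at 40 min and CDC45 had -1.52, its lowest value on any array, after 0.017 at 20 min. The remaining WT ratios of CDC45 lay between -0.34 and 0.23, so the low value stands on the 40 min array, which has no counterpart in the deletion strains. ORC4, measured on 7 arrays, had -0.68 in WT and -0.55 in the YAP1 deletion at 20 min and 0.12 in the PDR1 deletion. ORC1 had no value in the PDR1 deletion, and at 20 min it had -0.33 in WT and -0.34 in the YAP1 deletion.

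ORC6 (YHR118C) had responses near 0 over 2 to 20 min in WT (0.023) and in the PDR1 deletion (0.020), and its highest WT value at 40 min. Its log2 ratios in WT from 30 s to 40 min were 0.15, -0.091, -0.073, 0.26, 0 and 0.66. The YAP1 deletion had 0.12, 0.17, -0.001, 0.55 and 0.19 from 30 s to 20 min. The PDR1 deletion had -0.20, 0.25 and 0.094 for 4, 10 and 20 min. The 10 min value was above 0 in all 3 strains, and the ranges of the strains overlapped. Its response in the YAP1 deletion was 0.23 ± 0.07, the smallest adjusted p of a member in that strain, and it was not called (limma, adjusted p = 0.323).

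Polymerase alpha-primase makes the RNA-DNA primers, and its 4 subunits gave opposite values. POL1 (YNL102W), the catalytic subunit of the polymerase, had WT log2 ratios of -0.18, 0.14, -0.012, -0.35, -1.57 and -0.53 from 30 s to 40 min. The YAP1 deletion had 0.008, -0.008, -0.17, 0.004 and 0.013 from 30 s to 20 min. The PDR1 deletion had -0.22, -0.11, -0.094 and -0.45 for 30 s, 4, 10 and 20 min, with the 2 min value missing. The WT values at 10, 20 and 40 min were below every value of the YAP1 deletion, and the one at 20 min was the lowest value of any member on any array. Over 2 to 20 min the mean WT response was -0.45 ± 0.17, which did not pass the test (limma, adjusted p = 0.161).

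PRI1 (YIR008C), the catalytic subunit of primase, was mostly above 0. It had WT log2 ratios of -0.018, -0.066, 0.23, 0.19, 0.36 and 0.45 from 30 s to 40 min. Its values were 0.37, 0.18, 0.58, -0.13 and 0.20 in the YAP1 deletion, and in the PDR1 deletion 0.13, 0.14, 0.17, 0.46 and 0.34, from 30 s to 20 min. The PDR1 deletion was above 0 on all 5 arrays, and the strains overlapped. The response of PRI1 in the PDR1 deletion was 0.28 ± 0.10 and was not called (limma, adjusted p = 0.119). PRI2 (YKL045W), the large subunit of primase, had WT log2 ratios of -0.43, -0.41, -0.094, -0.001, -0.081 and 0.77 from 30 s to 40 min, so that the 40 min array alone was above 0. Its ratios were -0.069, -0.35, -0.53, 0.18 and -0.079 in the YAP1 deletion and -0.51, -0.23, -0.30, 0.079 and 0.18 in the PDR1 deletion. In all 3 strains the value at 10 min was above those at 2 and 4 min. POL12, the B subunit of the complex, had -0.46 in WT at 40 min and 0.43 in WT at 2 min, and was not called in any comparison.

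Polymerase epsilon extends the leading strand and polymerase delta the lagging strand. POL2, the catalytic subunit of polymerase epsilon, had WT log2 ratios of -0.31, -0.44 and -0.80 for 10, 20 and 40 min, against -0.14 in the YAP1 deletion and -0.023 in the PDR1 deletion at 20 min. Its WT response over 2 to 20 min was -0.24 ± 0.08 and did not pass (limma, adjusted p = 0.141). The small subunits DPB3 and DPB4 had WT responses of -0.086 and -0.064. DPB2, measured on 6 arrays, had 0.60 in WT and 0.66 in the YAP1 deletion at 20 min but -0.26 in WT at 40 min. POL3, the catalytic subunit of polymerase delta, had a WT response of -0.066, and its second subunit POL31 had -0.43 in WT and -0.34 in the YAP1 deletion at 20 min.

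The sliding clamp PCNA, encoded by POL30, holds the polymerases on DNA, and the complex of RFC1 to RFC5 loads it. At 40 min in WT all 6 genes were below 0, with a median log2 ratio of -0.507 and a range of -1.10 to -0.14. POL30 (YBR088C) had WT log2 ratios of -0.001, 0.29, -0.45, -0.40, -0.87 and -1.10 from 30 s to 40 min. They were -0.17, 0.12, -0.22, -0.29 and -0.31 in the YAP1 deletion, and in the PDR1 deletion -0.085, -0.32, 0.12, -0.52 and -0.35, from 30 s to 20 min. At 10 and 20 min POL30 was below 0 in all 3 strains, and only WT went below -0.52. Its WT response over 2 to 20 min was -0.36 ± 0.12 (limma, adjusted p = 0.118).

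RFC5 (YBR087W) differed between the strains at the later times. In WT its log2 ratios were -0.090, 0.024, -0.34, -0.24, -0.35 and -0.71 from 30 s to 40 min. They were -0.12, 0.12, -0.049, -0.21 and -0.23 in the YAP1 deletion, and in the PDR1 deletion 0.22, -0.11, -0.44, 0.29 and 0.32. At 10 and 20 min the PDR1 deletion was above 0 while WT and the YAP1 deletion were below, and at 4 min it was the lowest of the 3. The difference between the PDR1 deletion and WT at 10 and 20 min was 0.60 ± 0.14 (95% interval 0.29 to 0.91) and did not pass the adjustment (limma, adjusted p = 0.104). This contrast was not planned, and it uses the values by which RFC5 was chosen for a full description. RFC1 was below -0.6 at 20 min in WT (-0.62) and in the YAP1 deletion (-0.67) and had -0.057 in the PDR1 deletion.

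POL30 and RFC5 are neighbours on their chromosome by their locus tags, and so are POL2 and ORC5. Their probes also had consecutive numbers, and the 4 genes are 4 of the 7 that were at least 1.5-fold lower in WT at 40 min. The median log2 ratio of the 20 probes around POL30 and RFC5, 10 on each side, was -0.144 on that array, against -1.10 for POL30 and -0.71 for RFC5 themselves.

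RPA, the complex of RFA1 to RFA3 that coats single-stranded DNA, gave values near 0 in WT. The WT responses over 2 to 20 min lay between 0.014 and 0.044. RFA1 (YAR007C) had WT log2 ratios of 0.002, -0.012, 0.057, -0.26, 0.26 and 0.33 from 30 s to 40 min. It ranged from -0.10 to 0.097 in the YAP1 deletion and from -0.008 to 0.21 in the PDR1 deletion, so both ranges lay within that of WT. RFA3 (YJL173C) had 0.075, -0.058, -0.050, 0.11, 0.18 and -0.19 in WT. Its ratios were -0.12, 0.030, 0.11, 0.20 and 0.18 in the YAP1 deletion and 0.24, 0.34, 0.016, -0.070 and -0.15 in the PDR1 deletion, from 30 s to 20 min. At 20 min RFA3 was above 0 in WT and the YAP1 deletion and below 0 in the PDR1 deletion.

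CDC9, the DNA ligase, and RAD27, the flap nuclease, join Okazaki fragments. RAD27 (YKL113C) had WT log2 ratios of 0.14, -0.22, 0.084, 0.006, -0.57 and -0.34 from 30 s to 40 min. Those of the YAP1 deletion were 0.065, -0.006, -0.006, -0.24 and -0.38, and those of the PDR1 deletion -0.27, -0.061, -0.005 and -0.023 for 30 s, 4, 10 and 20 min. At 20 min it was low in WT and the YAP1 deletion and near 0 in the PDR1 deletion. CDC9 had -0.45 in WT at 10 min and -0.36 at 20 min, and -0.37 in the YAP1 deletion and -0.080 in the PDR1 deletion at 20 min. Neither gene was called, with WT responses of -0.22 for CDC9 and -0.18 for RAD27.

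MRC1, TOF1 and CTF4 hold the helicase and the polymerases together at the fork. They were the role with the lowest median response in the PDR1 deletion, at -0.303 over the 3 genes, against -0.0116 for all features. That median is the value of CTF4, and the 3 genes were not alike. MRC1 had a response of -0.070 in the PDR1 deletion, with log2 ratios of -0.24, 0.11, -0.15, -0.37 and 0.13 from 30 s to 20 min. TOF1 had the smallest adjusted p of any member in that strain, with a response of -0.32 ± 0.09 from 3 arrays (limma, adjusted p = 0.0589). CTF4 (YPR135W) had log2 ratios of -0.47, -0.28, -0.22, -0.11 and -0.60 in the PDR1 deletion from 30 s to 20 min. In WT they were 0.014, 0.027, -0.30, -0.22, 0.20 and 0.33 from 30 s to 40 min, and in the YAP1 deletion -0.14, -0.044, -0.22, -0.071 and 0.13. CTF4 was below 0 on every array of the PDR1 deletion, while at 20 min WT and the YAP1 deletion were above 0, and at 4 and 10 min all 3 strains were below 0. Its response in the PDR1 deletion was -0.30 ± 0.10 and was not called (limma, adjusted p = 0.0956). No member passed in the PDR1 deletion, where 2.71% of all features were called down and 2.8% up. At an unadjusted p under 0.05, 4 members were lower and 3 higher there, against 13.2% and 10.6% of all features. CDC21, the thymidylate synthase, had -0.52 in the PDR1 deletion, -0.24 in WT and 0.19 in the YAP1 deletion at 20 min.

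Cohesin holds sister chromatids together from S phase on, and its members SMC1, SMC3 and MCD1 were all below 0 in WT on the 10, 20 and 40 min arrays. SMC3 (YJL074C) had WT log2 ratios of -0.008, -0.25, 0.072, -0.17, -0.72 and -1.25 from 30 s to 40 min. The YAP1 deletion had -0.10, -0.15, -0.16, 0.18 and -0.13 from 30 s to 20 min. The PDR1 deletion had 0.46, -0.24 and -0.14 for 4, 10 and 20 min, with the 30 s and 2 min values missing. The WT values at 20 and 40 min were below every value of the deletion strains. SMC1 and MCD1 had -0.27 and -0.18 in WT at 20 min and -0.33 and -0.39 at 40 min. The WT responses over 2 to 20 min were -0.27 for SMC3, -0.19 for MCD1 and -0.13 for SMC1, and 0 of 3 was called.

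**Figure D3:**
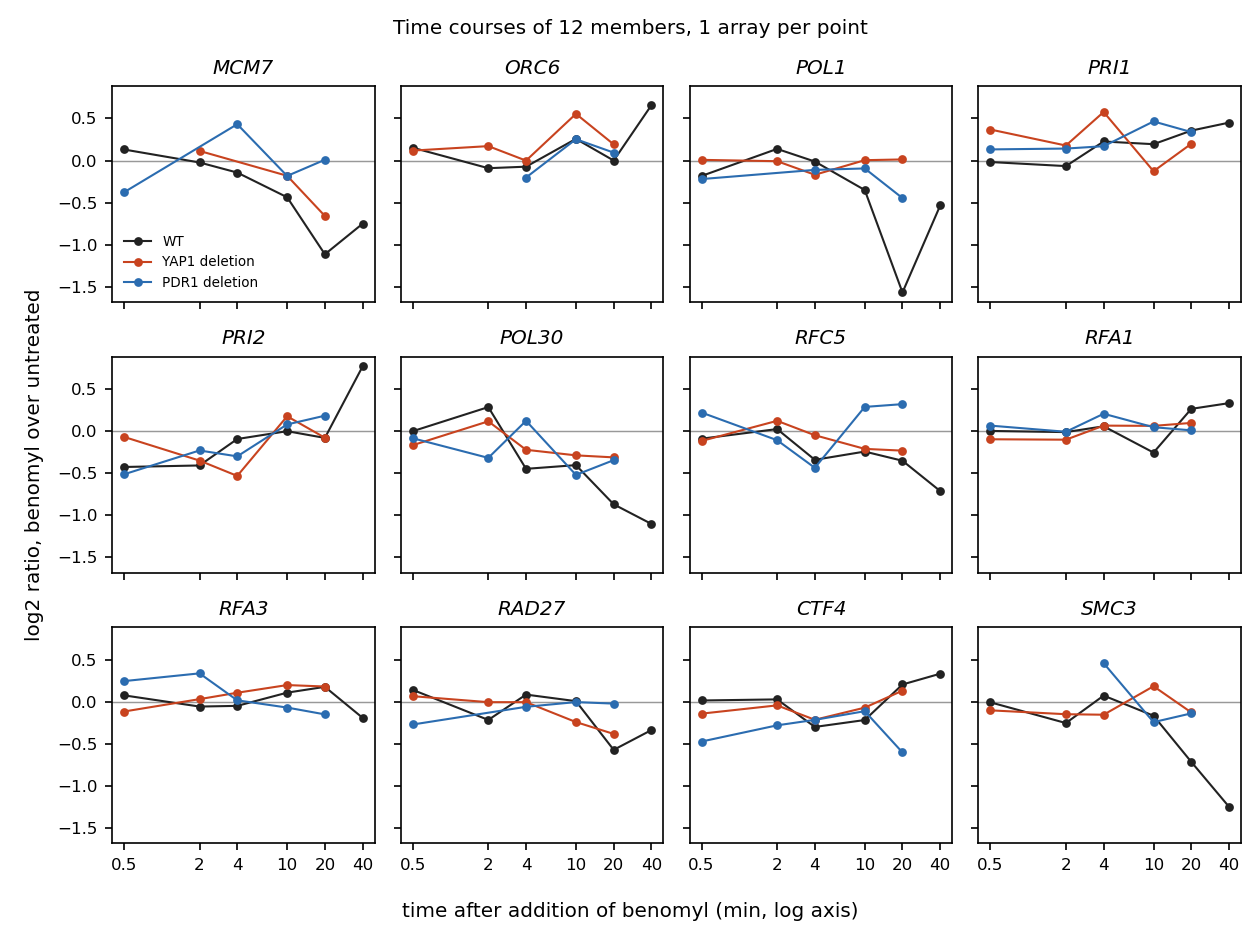
Time courses of the 12 members described in full, with the log2 ratio of benomyl over untreated cells on the y axis and the time after addition of benomyl on a log axis. Each point is 1 array (WT black, YAP1 deletion red, PDR1 deletion blue) and missing arrays are skipped; MCM7, POL1, POL30 and SMC3 reach their lowest values in WT at 20 or 40 min, and ORC6, PRI1 and PRI2 end above 0 in WT.

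Because the low values lay at the later times, the WT response at 10 and 20 min was also estimated, from a model with terms for strain and phase that was added after the values had been seen. There, 3 of 37 members fell and 0 rose, against 4.58% of all features down and 4.49% up, and at an unadjusted p under 0.05 10 were lower and 1 higher, against 15.4% and 10.2%. POL1 fell by 0.96 ± 0.17 on the log2 scale (limma, adjusted p = 0.00881), MCM7 by 0.77 ± 0.15 (adjusted p = 0.0156) and POL30 by 0.64 ± 0.17 (adjusted p = 0.0457). SMC3 (-0.44 ± 0.13), POL2 (-0.37 ± 0.11), CDC9 (-0.41 ± 0.12) and RFC5 (-0.30 ± 0.10) had adjusted p of 0.0659, 0.0666, 0.0690 and 0.0882 and were not called. The median over the 37 members was -0.1465, against -0.0445 for all features, and 30 of 37 (81.1%) were below 0, against 57.7%. The 3 calls rested on the WT 20 min array: without it 0 of the 3 genes passed, with log2 values of -0.44 for POL1, -0.51 for MCM7 and -0.37 for POL30. With the arrays scaled to a common spread POL1 alone passed, and so it did without the YAP1 deletion array of 2 min, where MCM7 had too few values for the model. POL30 also missed the threshold without the WT 10 min array, without any single YAP1 deletion array and without the PDR1 deletion array of 10 or of 20 min (adjusted p from 0.0599 to 0.0828), with array medians subtracted (adjusted p = 0.0606) and with the trend along the probe numbers removed (-0.55, adjusted p = 0.0793). Of the 37 members, 5 had only 1 of the 2 WT arrays at these times (ORC3, CDC6, POL12, DPB4 and TOF1).

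**Figure D4:**
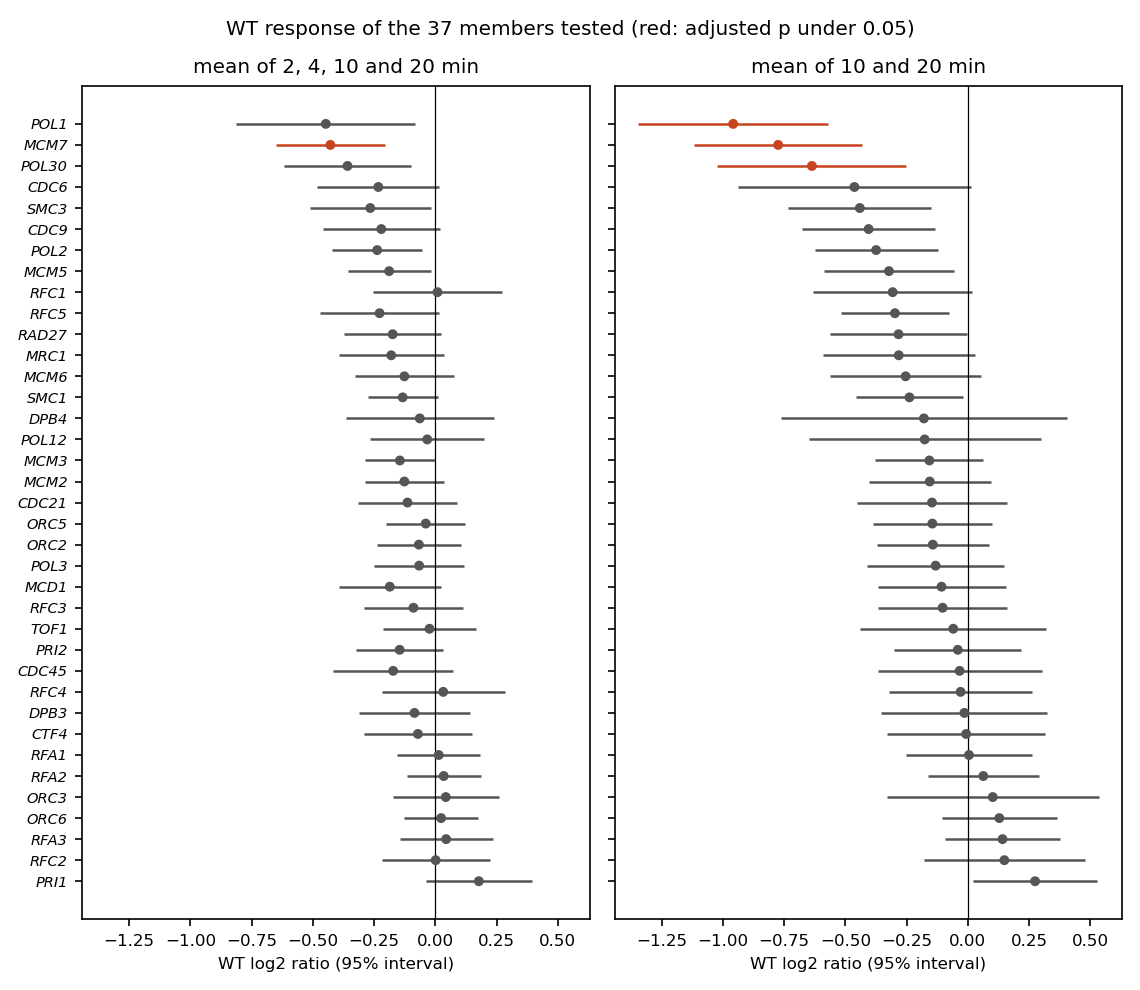
WT response of the 37 members tested, as the mean log2 ratio over 2, 4, 10 and 20 min (left) and over 10 and 20 min (right), with 95% intervals from limma; genes are ordered by the right panel. Red marks an adjusted p under 0.05, which holds for MCM7 on the left and for POL1, MCM7 and POL30 on the right.

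The deletion strains gave no called member. In the YAP1 deletion 0 of 37 passed over 2 to 20 min, where 0% of all features were called down and 0.116% up, and 4 members were lower and 1 higher at an unadjusted p under 0.05, against 4.53% and 5.09% of all features. The median of the members was -0.0925 there, against -0.0178 for all features, and 28 of 37 (75.7%) were below 0, against 56.5%. In WT the same count of 28 of 37 was below 0, against 60.5% of all features. The PDR1 deletion had 19 of 37 (51.4%) below 0, against 52.5% of all features. At 10 and 20 min 0 of 37 members were called in either strain (limma), against 0.0463% of all features down and 0.139% up without YAP1 and 1.62% down and 2.08% up without PDR1. At an unadjusted p under 0.05, 4 members were lower and 1 higher without YAP1, against 4.9% and 5.09%, and 4 were lower and 2 higher without PDR1, against 11.5% and 8.51%.

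The differences between strains were tested themselves, and no member passed. In the YAP1 deletion minus WT over 2 to 20 min 0 of 37 members were called, against 0.139% of all features down and 0% up, and 0 had an unadjusted p under 0.05, against 3.98% down and 4.65% up. In the PDR1 deletion minus WT 0 of 37 were called, against 0% of all features in either direction, and 1 was lower and 5 higher at an unadjusted p under 0.05, against 5.46% and 8.81%. POL1 at 10 and 20 min was higher in the YAP1 deletion than in WT by 0.97 ± 0.25 (95% interval 0.42 to 1.52), without passing (limma, adjusted p = 0.124), and the difference between the PDR1 deletion and WT was 0.69 ± 0.25 (adjusted p = 0.220). At 10 and 20 min 0 members were called in either difference (limma), against 1.27% of all features down and 0.208% up for the YAP1 deletion and 0.162% down and 0.116% up for the PDR1 deletion. At an unadjusted p under 0.05, 0 members were lower and 2 higher for the YAP1 deletion, against 4.26% and 5.76%, and 0 were lower and 4 higher for the PDR1 deletion, against 8.28% and 9.3%. A p that misses the threshold does not show that the strains acted alike. In simulated data the additive model called 0% of genes whose shift lay at 20 min in WT alone. Their mean shift over the 4 WT arrays was 0.5 or 1. A response that is confined to the end of the time course is thus one that model could miss.

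The change with time was called for no member either. The mean of 10 and 20 min minus that of 2 and 4 min, over the 3 strains, was -0.60 ± 0.13 for MCM7 (limma, adjusted p = 0.0774), 0.37 ± 0.09 for PRI2 (adjusted p = 0.0950) and -0.38 ± 0.14 for POL30 (adjusted p = 0.242). Here 0 of 37 members were called, against 0.162% of all features down and 0.278% up, with 3 lower and 2 higher at an unadjusted p under 0.05, against 7.56% and 6.68%. A constant dye bias of a gene cancels in this contrast. Whether the change with time differed from WT gave 0 calls of 37 for the YAP1 deletion, against 0.37% of all features down and 0% up, and 0 for the PDR1 deletion, against 0.139% down and 0% up. At an unadjusted p under 0.05, 1 member was lower and 1 higher for the YAP1 deletion, against 2.41% and 2.59% of all features, and 2 were lower and 3 higher for the PDR1 deletion, against 4.16% and 5.02%. These were led by POL1 at 1.12 ± 0.35 (adjusted p = 0.528) and RFC5 at 0.71 ± 0.20 (adjusted p = 0.321).

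The slope of the WT log2 ratio per doubling of time, over the 6 arrays from 30 s to 40 min, was estimated for 38 members. It was called for 0, against 0.0191% of all features down and 0.0762% up (limma). At an unadjusted p under 0.05, 9 members had a negative and 2 a positive slope, against 10.5% and 10.2% of all features. POL30 had -0.20 ± 0.05 (adjusted p = 0.0969), MCM7 -0.18 ± 0.04 (adjusted p = 0.0958) and SMC3 -0.17 ± 0.05 (adjusted p = 0.145), while PRI2 had 0.16 ± 0.05 (adjusted p = 0.140). Of the 38 slopes, 29 (76.3%) were below 0, against 52.8% of all features.

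Other genes of S phase were described through lists. Of 14 further fork factors 11 were tested, and at 10 and 20 min in WT POL32, a subunit of polymerase delta, fell by 0.60 ± 0.13 (limma, adjusted p = 0.0176), where 4.58% of all features were called down. ELG1, part of the complex that unloads PCNA, had a single WT value at these times, -0.67 at 10 min, and is given without a test. RNH201, the catalytic subunit of RNase H2, fell in the PDR1 deletion by 0.40 ± 0.10 over 2 to 20 min, on 3 arrays (adjusted p = 0.0410), where 2.71% of all features were called down. CTF8, of another clamp loader, rose in WT by 0.33 ± 0.08 over 2 to 20 min (adjusted p = 0.0348), where 2.61% of all features were called up. Of 12 further initiation factors 8 were tested, and TAH11, the yeast Cdt1 that brings MCM to origins, rose by 0.49 ± 0.10 at 10 and 20 min in WT (adjusted p = 0.0108), where 4.49% of all features were called up. The list as a whole did not go with TAH11. Its median log2 ratio in WT was -0.357 at 20 min, with 6 of 10 below 0, and -0.08 at 40 min, with 8 of 11 below 0. None of 6 tested genes of chromatin assembly behind the fork, of 7 of the S-phase checkpoint and of the 1 further cohesion factor passed in the models of 12 arrays, and none of 7, 8 and 4 such genes had a called WT slope.

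Among 7 tested genes of deoxynucleotide supply, RNR1 and RNR3, the large subunits of ribonucleotide reductase, had the lowest values. At 10 and 20 min both fell in WT, with log2 values of -1.35 ± 0.13 and -1.51 ± 0.10 (limma, adjusted p = 8.27e-05 and 5.06e-06), and in the PDR1 deletion, with -1.43 ± 0.13 and -1.65 ± 0.10 (adjusted p = 5.71e-05 and 6.28e-06). In the YAP1 deletion at these times RNR3 fell by 0.75 ± 0.10 (adjusted p = 0.0208), and it was higher than in WT by 0.76 ± 0.15 (adjusted p = 0.0280). DCD1, the dCMP deaminase, fell in WT by 0.56 ± 0.13 (adjusted p = 0.0261). The list as a whole did not go with these genes. Its median WT response at 10 and 20 min was 0.007, against -0.044 for all features. Its median log2 ratio in WT was -0.236 at 20 min, with 5 of 8 below 0, and 0.112 at 40 min, with 4 of 8 below 0. RNR2 had 0.45 and 0.79 on these 2 arrays, and RNR4 had 0.092 and 0.29. The array values of RNR1 and POL1 at 20 min stand side by side here, without a test of their difference. RNR1 had -2.05 in WT, -1.09 in the YAP1 deletion and -1.72 in the PDR1 deletion, and POL1 had -1.57, 0.013 and -0.45. Among 8 tested G1/S regulators, the G1 cyclin CLN1 (-0.49 ± 0.12, adjusted p = 0.0300) and SWI6, a subunit of both MBF and SBF (-0.46 ± 0.12, adjusted p = 0.0451), fell in WT at 10 and 20 min, against 4.58% of all features down. CLN2, another G1 cyclin, had a single WT value at these times, -0.55 at 10 min, and is given without a test. Over 2 to 20 min in the PDR1 deletion CLN1 (-0.32 ± 0.08, adjusted p = 0.0494) and CLN2 (-0.52 ± 0.11 on 3 arrays, adjusted p = 0.0313) fell. The median of the G1/S list in WT was -0.303 at 20 min, with 6 of 9 below 0, and -0.149 at 40 min, with 7 of 9 below 0.

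Markers of other cell cycle phases were also low on some of these arrays, although few could be tested. Of the 2 G2/M markers tested in the models of 12 arrays 0 were called. Of the 4 M/G1 markers SIC1 fell in WT at 10 and 20 min (-0.44 ± 0.12, limma, adjusted p = 0.0417) and PIR1 in the PDR1 deletion over 2 to 20 min (-0.37 ± 0.09, adjusted p = 0.0329). The 6 measured G2/M markers had a median log2 ratio of -0.837 in WT at 20 min and -0.308 at 40 min, with 5 of 6 and 6 of 6 below 0. The 6 M/G1 markers had -0.454 and -0.469, with 5 of 6 below 0 at each time. In the PDR1 deletion at 20 min the medians were -0.035 over 6 G2/M markers and -0.461 over 5 M/G1 markers, with no value for ASH1. In the YAP1 deletion they were -0.371 over 5 G2/M markers, with no value for CLB1, and -0.011 over 6 M/G1 markers. The medians of the strains are thus not all over the same genes. The markers at 20 min ranged in WT from -1.73 (CDC5) to 0.043 (CDC20) for G2/M and from -1.23 (ASH1) to 0.23 (CTS1) for M/G1. What part the markers' values have in the low ratios of the replication genes was not tested.

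**Figure D5:**
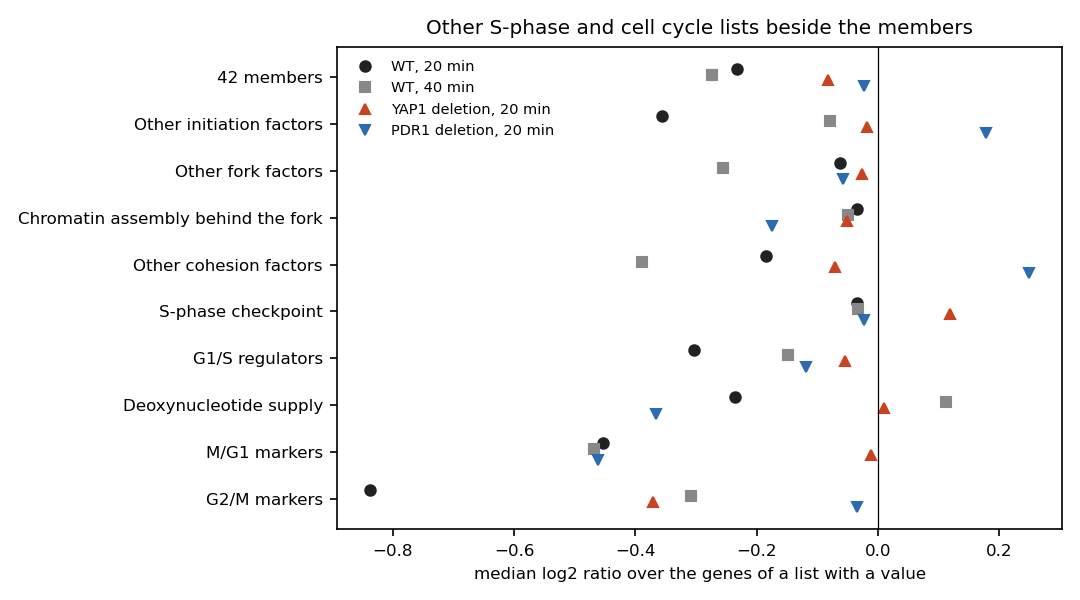
Median log2 ratio of the 42 members and of the other S-phase and cell cycle lists (rows) in WT at 20 min (circles) and 40 min (squares) and in the YAP1 deletion (upward triangles) and the PDR1 deletion (downward triangles) at 20 min, 1 array each. The members' medians in WT (-0.23 and -0.27) lie between those of the checkpoint list, near 0, and the G2/M list at 20 min (-0.837).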

How the data were processed

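The values used were log2 ratios that the authors deposited, 1 column per array of total RNA; per the labels, channel 1 was a strain with benomyl and channel 2 the same strain without it. Scanner, background correction and normalisation are not given in the sources used here, and spot intensities were not used here. With 1 array per strain and time, the number of arrays limits the precision. Symbols came from the platform annotation, updated through RefSeq. Promoter sequences and motifs were not used here.

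With limma 3.58.1 in R 4.3.3, strain means with time as a block were fitted to the 12 arrays of 2, 4, 10 and 20 min, on features with at least 3 of 4 values per strain; SE is the moderated standard error, and a call is a Benjamini-Hochberg adjusted p under 0.05 over all features. The p measures the spread left after strain and time, not that of biological repeats, and it holds any strain-by-time difference. A second model added strain-by-phase terms (4323 features), and a WT slope used 6 arrays with at least 5 values (5248 features). Members named in full were those called in any contrast, the 4 lowest and 4 highest by the WT mean of 20 and 40 min, and the 2 lowest and 2 highest of each deletion strain by its mean of 10 and 20 min. The contrasts included those of 10 and 20 min, which were not planned. POL1 and POL30 were called only there, and both were also among the 4 lowest in WT. Members and lists were chosen with earlier results of these data known.

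Arrays of the same time deviated together unevenly (r from -0.069 to 0.524 over the 12 pairs of strains), so times were not taken as pairs from the data; the block is part of the design. On simulated data with 4324 genes, 80.5% of genes with a constant WT shift of 0.5 were called. Alternatives covered scaling, centring, filters, the block, the 30 s arrays and leaving out each array.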

Additional observations from a re-analysis of the deposited data

Results flagged for a closer look

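Of 36 checks for an array far from the others of its strain, 4 stood out. The usual rate of about 1 in 20 would hold for repeats of the same condition and for genes not chosen by their values. Here the arrays of a strain are different times. The genes flagged below other than POL31 were described in full partly through their values on these arrays, PRI2 through its WT mean of 20 and 40 min. POL1 in the YAP1 deletion at 4 min had a log2 ratio of -0.169, with the other 4 arrays between -0.008 and 0.013. PRI2 in WT at 40 min had 0.768, with the other 5 between -0.426 and -0.001. SMC3 in the YAP1 deletion at 10 min had 0.183, with the other 4 between -0.155 and -0.103. The median of the members in the PDR1 deletion at 4 min was 0.016, with the other 4 between -0.032 and -0.019. POL31 lay on opposite sides of 0 in 2 strains: its mean log2 ratio was -0.29 over WT at 20 and 40 min (-0.426 and -0.153) and 0.095 over the PDR1 deletion at 4, 10 and 20 min (0.226, 0.018 and 0.042), a difference of 0.385. These means share the 20 min time alone, and the PDR1 deletion values at 10 and 20 min were near 0. POL31 had too few values for the model, and the difference was not tested.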

How the results depend on the processing

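The WT count over 2 to 20 min, 1 member (MCM7), was 0 with array medians subtracted, with arrays scaled to a common spread, with the trend along the probe numbers or the median of the flanking probes removed, with no replicate block, with WT arrays alone, with the 30 s arrays included, and without the array of each strain that follows the probe numbers most. It was also 0 with all 4 values required, where MCM7 lacked values and was not fitted. At 10 and 20 min only it was 3, where 9.07% of all features were called. With the 30 s array subtracted it was 7, where 14% of all features were called and MCM7 could not be fitted. Of these, ORC3 and PRI2 were up and CDC6, CDC9, MCM5, RAD27 and SMC1 down. Leaving out arrays gave 0 to 2, where 34 to 261 of all features were called. MCM7 stayed below 0 in all 28 alternatives that could fit it (-0.774 to -0.201, adjusted p from 0.0156 to 0.465). Subtracting the 30 s array, whose error then enters all 4 values of a strain, also raised the calls over all features. It gave 6 members in the YAP1 deletion (29.8% of all features), with MCM5, ORC5 and RFC1 down and RFA2, RFA3 and RFC2 up. It gave 4 in the PDR1 deletion (23.6%), with CDC21 and ORC2 down and MCM2 and PRI2 up. In each strain difference it gave 4, against 12.2% of all features for the YAP1 deletion and 10.6% for the PDR1 deletion. With the 30 s arrays included 1 member (CTF4) was called in the PDR1 deletion (4.9% of all features) and 1 (PRI2) in the later minus earlier times (3.63%). Leaving out arrays gave 0 to 1 in the PDR1 deletion (CDC6 without the 2 min arrays, 4.44% of all features called), in the later minus earlier times (MCM7 without the PDR1 deletion 20 min array, 1.53%) and in the YAP1 deletion minus WT change with time (POL1 without the WT 10 min array, 0.773%). The WT count at 10 and 20 min, 3, was 1 with arrays scaled (3.22% of all features) and 2 (POL1 and MCM7) with array medians subtracted (8.17%) or the trend along the probe numbers removed (8.05%). It was 3 with the median of the flanking probes subtracted (9.81%) and 0 to 3 without single arrays. On linear minutes the WT slope called 5 members (CDC45, ORC5, POL30 and SMC3 down, PRI2 up), where 12.6% of all features were called. At a fold of 2 the counts in WT were 2 at 20 min and 3 at 40 min. Over all features the calls over 2 to 20 min were 180 in WT, 5 in the YAP1 deletion and 238 in the PDR1 deletion, and ranged over the alternatives from 0 to 512, 0 to 1090 and 36 to 863. The causes of these changes were not tested. The replicate block is the main design. Both changes with time by strain could not be fitted without the array of each strain that follows the probe numbers most.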
